A study of Homo sapiens with 8 samples.

Results

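The MYC, MAX and MXD network was followed in U2OS cells, a human osteosarcoma line, after silencing of CDK9. The network was taken as 10 named genes, namely MYC, MYCN, MYCL, MAX, MXD1, MXD3, MXD4, MXI1, MNT and MLX, out of 18417 genes tested. The members were selected by gene symbol: each had 1 probe set that carried its symbol alone, and 0 probe sets shared with another gene. All 10 were measured. Cells were transfected with 10 nM of siRNA against CDK9 or of a non-targeting siRNA and collected after 72 h, and total RNA of 4 cultures per group was hybridised to Affymetrix gene arrays. The titles name the groups CDK9 Knock Down and Nonspecific siRNA. The labels do not say whether the CDK9 siRNA was a single sequence or a pool. Both groups carried the same line, medium, transfection reagent and siRNA dose, and no untransfected culture was analysed here. An array of total RNA averages over a culture, so a change per cell and a change in the share of cells that express a gene cannot be told apart.

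MYC is a basic helix-loop-helix leucine zipper transcription factor that binds DNA as a pair with MAX, most tightly at the E-box motif CACGTG, and raises transcription of growth, ribosome and metabolism genes. MXD1, MXI1, MXD3, MXD4 and MNT also pair with MAX at E-boxes, and they recruit the Sin3 and histone deacetylase corepressor, so that they act against MYC. MLX is a MAX-like partner used by MXD1, MXD4 and MNT and by the glucose sensors MondoA (MLXIP) and ChREBP (MLXIPL). CDK9 is the kinase that releases paused RNA polymerase II. The MYC transcript is short-lived, and brief exposure to CDK9 inhibitors is widely reported to lower it.

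The 8 arrays fell into sets that differ in scale. Replicate 1 of both groups had median log2 signals of 5.80 and 5.85, and replicates 2 to 4 had medians of 6.99 to 7.04. These are called array set 1 (1 array per group) and array set 2 (3 arrays per group), and the set was a term of the fit. A gene is said to have risen or fallen where the limma test of the log2 difference, CDK9 siRNA minus control, had an adjusted p under 0.05 (Benjamini-Hochberg method, all genes). By this test 6.73% of all genes rose and 7.47% fell. CDK9 itself was at 28.4% of the control signal (95% confidence interval 26.4 to 30.5%, n = 4 per group). Of the osteosarcoma and mesenchymal markers RUNX2, COL1A1, COL1A2, VIM, SPARC and CDH2, 0 of 6 were dim, which means a mean in the lowest 30% of genes, and RUNX2 (-0.60), COL1A1 (-0.51) and VIM (-0.19, adjusted p = 0.0323 and 0.0808 blocked on replicate number) fell. All 9 measured markers of epithelial, blood and endothelial cells were dim. Their mean log2 signal was 5.69 to 5.71 in the CDK9 siRNA arrays of set 2 and 5.58 to 5.72 in the controls, and 1 of the 9, EPCAM, rose (0.32 ± 0.09 SE, n = 4 per group, adjusted p = 0.0366, and 0.216 with all its probe sets averaged); its part in the results was not tested.

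Because every dimer of the network reads the E-box, the promoter windows of the members were searched for it. RefSeq windows of GRCh38.p14, from 250 bases before to 50 bases after a gene's start, were held for 9 members, in 12 windows. MYC had no window, so its promoter was not searched. The motif CACGTG, which reads the same on both strands, was in 3 of the 12 windows, those of MXD4, MNT and MLX, against 7.26% of all 35116 windows. They are shown as members of the network whose own promoter carries the network's motif, 5′ to 3′ on the gene's strand, with the motif in capitals. The windows are chr4:2262060-2262359 (minus strand) for MXD4, chr17:2401011-2401310 (minus strand) for MNT and chr17:42566850-42567149 (plus strand) for MLX.
MXD4: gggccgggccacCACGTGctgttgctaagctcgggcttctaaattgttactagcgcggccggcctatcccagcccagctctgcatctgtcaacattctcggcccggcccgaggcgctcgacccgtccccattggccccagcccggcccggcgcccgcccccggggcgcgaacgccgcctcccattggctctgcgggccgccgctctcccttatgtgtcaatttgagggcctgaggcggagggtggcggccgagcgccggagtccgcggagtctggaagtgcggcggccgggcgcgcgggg
MNT: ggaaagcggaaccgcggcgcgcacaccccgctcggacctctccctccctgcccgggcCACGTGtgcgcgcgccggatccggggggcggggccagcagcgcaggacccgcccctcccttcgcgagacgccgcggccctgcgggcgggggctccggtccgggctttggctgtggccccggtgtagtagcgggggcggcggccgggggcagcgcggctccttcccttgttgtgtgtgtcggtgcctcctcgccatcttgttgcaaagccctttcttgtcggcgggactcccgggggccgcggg
MLX: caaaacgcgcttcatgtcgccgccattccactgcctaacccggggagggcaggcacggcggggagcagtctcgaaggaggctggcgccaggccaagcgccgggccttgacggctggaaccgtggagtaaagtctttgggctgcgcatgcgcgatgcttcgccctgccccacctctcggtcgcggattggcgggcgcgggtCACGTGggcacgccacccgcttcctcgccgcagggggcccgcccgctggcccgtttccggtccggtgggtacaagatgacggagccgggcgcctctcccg

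The motif began 238 bases before the annotated start in MXD4, 193 before it in MNT and 50 before it in MLX. A match describes these letters and does not show binding. MYCN, MYCL, MAX, MXD1, MXD3 and MXI1 had windows without these letters. The 3 genes with the motif did not pass the expression test, and their differences had different signs (MXD4 -0.23, MNT -0.11 and MLX 0.14).

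MYC was the member that rose. Its log2 signal (probe set 8148317) was 10.57, 11.38, 11.45 and 11.53 in replicates 1 to 4 after CDK9 silencing, and the controls had 10.35, 10.93, 10.98 and 11.00. Within each array set every CDK9 siRNA array was above every control array, but replicate 1 of the CDK9 siRNA group lay below the set 2 controls as its set had the lower scale. MYC was at 134% of control (95% confidence interval 121 to 147%), a log2 difference of 0.42 ± 0.06 (SE, n = 4 per group, adjusted p = 0.00298). The difference was 0.23 in the single pair of set 1 and 0.48 in set 2, and the test of the difference between sets had an adjusted p of 0.233. For MYC alone, a two-sided exact permutation test gave p = 0.05 over the 40 arrangements within array sets, the smallest they can give, and p = 0.143 over all 70 arrangements, which ignore the sets. MYC was chosen with earlier results of these data known, and these p-values do not account for that choice. Among the 1239 genes that rose MYC ranked 288 by size, above their median rise of 0.30.

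**Figure D1:**
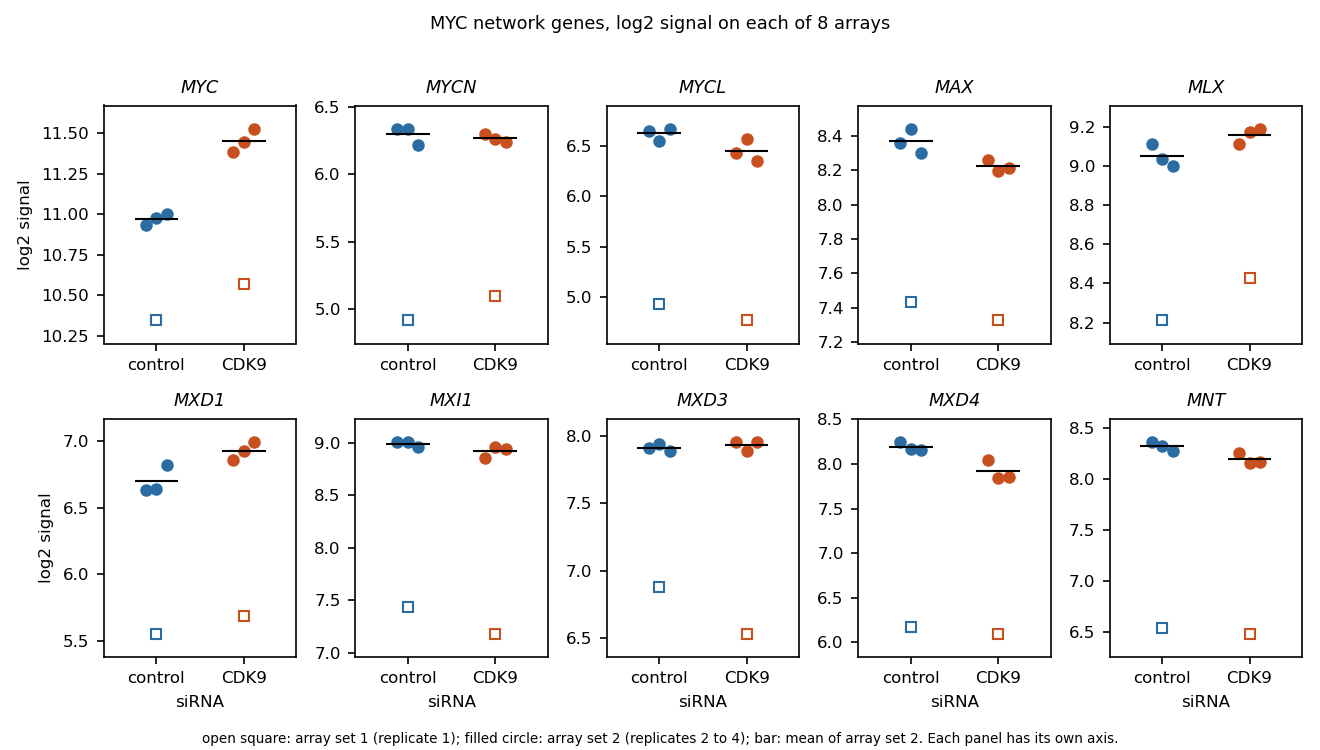
Log2 signal (vertical axis, 1 scale per panel) of the 10 network genes on each array, by siRNA (horizontal axis); open squares are array set 1, filled circles array set 2, and bars the means of set 2. The 3 filled MYC points of the CDK9 siRNA group sit between 11.38 and 11.53, all above the controls, while the points of MYCN, MXD3 and MXI1 overlap or nearly touch.

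The paralogs of MYC did not rise with it. MYCN, best known from neural tumours and development, read 5.10, 6.29, 6.26 and 6.24 in replicates 1 to 4 under CDK9 siRNA and 4.92, 6.33, 6.34 and 6.22 in the controls. The groups overlapped in set 2, and the log2 difference was 0.02 ± 0.06 (95% confidence interval -0.11 to 0.15, adjusted p = 0.853). MYCL, the paralog first found in lung cancer, read 4.77, 6.43, 6.57 and 6.35 against 4.94, 6.65, 6.55 and 6.67. Its groups overlapped in set 2 as well, and the difference of -0.17 ± 0.06 did not pass (95% confidence interval -0.31 to -0.03, adjusted p = 0.0983). MYCN and MYCL were the 2 dim members, so their signals bound expression only loosely.

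MAX, the obligate partner of MYC and a partner of its antagonists, did not move with MYC. Its signals were 7.33, 8.26, 8.20 and 8.21 in replicates 1 to 4 under CDK9 siRNA and 7.43, 8.36, 8.44 and 8.30 in the controls. Each CDK9 siRNA array lay below every control of its set, but the gap was small. MAX was at 91.0% of control (95% confidence interval 84.1 to 98.6%), a log2 difference of -0.14 ± 0.05 with an adjusted p of 0.116. MLX, the MAX-like partner, read 8.43, 9.11, 9.18 and 9.19 against 8.21, 9.11, 9.04 and 9.00. Its CDK9 siRNA arrays lay above the controls of their set, in set 2 by a margin that vanishes at 2 decimals, and the difference of 0.14 ± 0.05 did not pass (95% confidence interval 0.02 to 0.25, adjusted p = 0.12).

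Among the antagonists of MYC, 0 of 5 passed, where 14.2% of all genes passed in either direction. With 5 genes this count says little about them. Those nearest to the threshold went opposite ways. MXD4, an antagonist expressed in many tissues, read 6.10, 8.05, 7.85 and 7.85 in replicates 1 to 4 under CDK9 siRNA and 6.17, 8.25, 8.17 and 8.16 in the controls. All CDK9 siRNA arrays lay below the controls of their set. MXD4 was at 85.5% of control with a log2 difference of -0.23 ± 0.07 (95% confidence interval -0.38 to -0.07, adjusted p = 0.0542). It passed in 3 of the 8 fits that leave out an array. Those without replicate 1 of either group are the same fit, that of array set 2 alone (-0.28, adjusted p = 0.0303). The other was without CDK9 siRNA replicate 2 (-0.26, adjusted p = 0.0477). In the rest MXD4 did not pass, with an adjusted p of up to 0.143.

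MXD1, the antagonist first linked to differentiation, read 5.69, 6.85, 6.92 and 7.00 under CDK9 siRNA and 5.55, 6.63, 6.64 and 6.82 in the controls. Its CDK9 siRNA arrays lay above the controls of their set, with replicate 2 of the former close to replicate 4 of the latter. The log2 difference of 0.20 ± 0.06 did not pass (95% confidence interval 0.06 to 0.34, adjusted p = 0.0592). MXD1 and MXD4 both passed when dim genes were left out before the fit (adjusted p = 0.0333 and 0.0311), a fit in which 23.8% of 12892 genes passed. Neither passed in the fit blocked on replicate number (0.0692 and 0.0741). With any array left out MXD1 did not pass (adjusted p 0.054 to 0.17).

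The other 3 antagonists lay within -0.12 and -0.07. MNT, a broadly expressed antagonist, read 6.49, 8.26, 8.16 and 8.17 against 6.54, 8.37, 8.33 and 8.28, lower in each set by a narrow margin (-0.11 ± 0.05, adjusted p = 0.187). MXI1 read 7.18, 8.86, 8.96 and 8.94 against 7.44, 9.01, 9.01 and 8.96, where set 2 overlapped (-0.12 ± 0.06, adjusted p = 0.208, with -0.26 in set 1 and -0.07 in set 2). MXD3, an antagonist linked to proliferating cells, read 6.53, 7.95, 7.89 and 7.96 against 6.88, 7.91, 7.94 and 7.89, and its difference of -0.07 ± 0.07 (adjusted p = 0.574) came from set 1 (-0.35), since set 2 gave 0.02.

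As a network, 1 of 10 members rose and 0 fell, against 14.2% of all genes that passed in either direction. At an unadjusted p under 0.05 in limma, 3 members were higher (MYC, MXD1 and MLX) and 3 lower (MXD4, MYCL and MAX), against 28% of all genes. The median difference was -0.09, beside -0.0016 over all genes, and it was -0.05 in set 2, that is without the replicate 1 arrays. Groups that did not overlap in set 2, with the same sign in set 1, were found for 3 members in each direction, namely MYC, MXD1 and MLX above and MAX, MXD4 and MNT below; 25.3% of all genes did so in either direction. For 8 of the 10 the sign was the same in both array sets, and MYCN and MXD3 were the exceptions. The difference between sets passed for 0 members, with a smallest adjusted p of 0.0852 (MXD3), against 2.14% of all genes. The members share the same 8 arrays, so these counts are not independent, and differences between members were not tested.

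**Figure D2:**
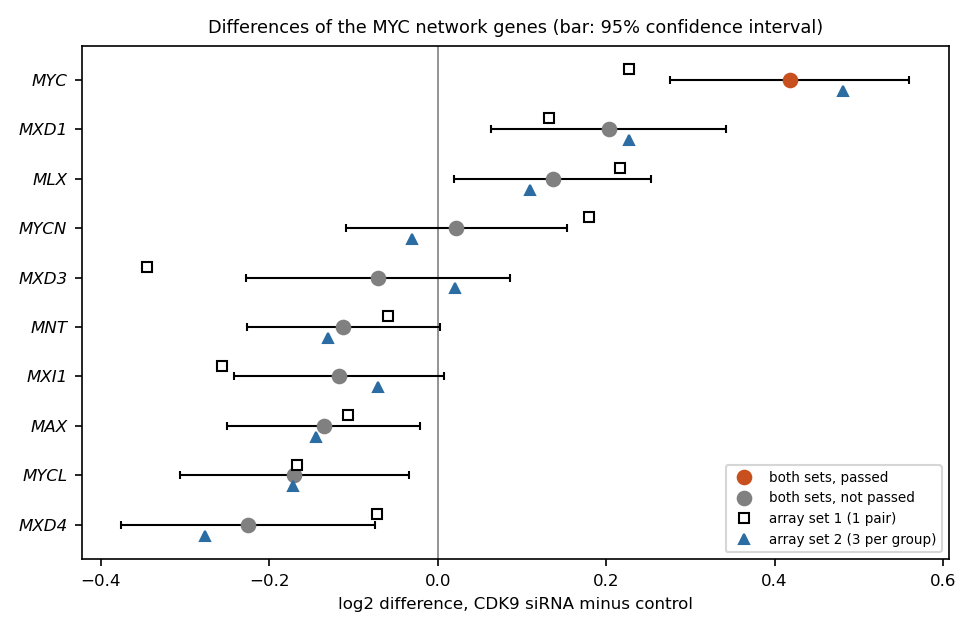
Log2 difference, CDK9 siRNA minus control (horizontal axis), of each network gene, with bars for the 95% confidence interval of the fit over 4 arrays per group; squares and triangles are the differences in array sets 1 and 2. MYC at 0.42 is the member that passed, and the intervals of MXD4 (-0.23), MXD1 (0.20), MYCL, MAX and MLX leave out 0 although these genes did not pass after adjustment.

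The genes whose pattern over the 8 arrays was most like that of MYC were found by the root mean square distance between log2 values, each gene centred on its mean within each array set. Of 12891 genes that were not dim, RAB38, a small GTPase of vesicle transport, was nearest at 0.0261, followed by TUFT1 (0.0299), ARHGAP31 (0.0323), the matricellular gene CCN1 (0.0326) and CRIM1 (0.0354). The median distance was 0.242. Their differences were 0.42 for RAB38, 0.40 for TUFT1, 0.40 for ARHGAP31, 0.36 for CCN1 and 0.46 for CRIM1, close to the 0.42 of MYC by construction. Among the members MXD1 was nearest to MYC (0.12, rank 755) and MXD4 farthest (0.351, rank 11839).

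The remaining genes of the extended network were MGA, MLXIP and MLXIPL, and 0 of 3 passed, beside 14.2% of all genes. At an unadjusted p under 0.05 in limma 1 was lower and 0 higher, where 28% of all genes passed. MGA, a large MAX partner that acts as a repressor, read 7.94, 9.09, 9.03 and 9.15 under CDK9 siRNA against 8.20, 9.17, 9.22 and 9.34 (-0.18 ± 0.06, adjusted p = 0.0784). The adjusted p of MGA was 0.0445 with dim genes left out, 0.106 in the fit blocked on replicate number and 0.143 in array set 2 alone. Its CDK9 siRNA arrays lay below the controls of their set. MLXIPL was dim and differed by 0.02 (adjusted p = 0.932). Of 14 measured genes of the Sin3 and histone deacetylase corepressor, through which the MXD proteins and MNT act, 0 rose and 2 fell. That share of 14.3% is near the 14.2% of all genes that passed in either direction. The median was -0.12, and it was -0.22 in the pair of set 1 and -0.05 in set 2, where 1 gene fell. ING2, a histone-reading subunit, fell by 0.20 and BRMS1 by 0.19 (adjusted p = 0.0324 and 0.0432, 0.0685 and 0.102 in the fit blocked on replicate number). ING2 lost its call in 5 and BRMS1 in 7 of the 8 fits that leave out an array, with adjusted p up to 0.104 and 0.114.

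Of 14 measured MYC coactivators and partners 1 rose and 2 fell, 21.4% in either direction beside 14.2% of all genes (median -0.11). RUVBL1, an ATPase that MYC uses in chromatin remodelling, read 9.30, 9.92, 9.94 and 9.90 under CDK9 siRNA against 9.10, 9.59, 9.64 and 9.60 in the controls, above them in each set, and rose by 0.28 ± 0.05 (adjusted p = 0.00517). SMARCB1, a core subunit of the SWI/SNF remodeller, fell by 0.35 ± 0.06 (adjusted p = 0.00571). CREBBP, an acetyltransferase coactivator, fell by 0.29 ± 0.05 (adjusted p = 0.00707).

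Genes that act on the MYC transcript or promoter gave 1 rise and 2 falls among 21 measured (median -0.03). That share of 14.3% is near the 14.2% of all genes that passed in either direction. TCF7L2, the Wnt pathway transcription factor for which MYC is a textbook target, read 7.93, 9.55, 9.43 and 9.56 in replicates 1 to 4 under CDK9 siRNA and 8.74, 10.07, 10.06 and 10.13 in the controls. All its CDK9 siRNA arrays lay well below the controls of their set, and it fell to 64.5% of control (95% confidence interval 58.5 to 71.0%, log2 -0.63 ± 0.06, adjusted p = 0.000378). LEF1, a factor of the same family, read 6.54, 8.30, 8.30 and 8.27 against 6.70, 8.91, 8.90 and 8.79 and fell by 0.47 ± 0.08 (adjusted p = 0.00475), with -0.15 in set 1 and -0.58 in set 2. In both array sets TCF7L2 and LEF1 were lower and MYC was higher. A link between these differences was not tested. E2F1, a cell cycle factor that binds the MYC promoter, rose by 0.22 (adjusted p = 0.0439). Its call was lost in the fit blocked on replicate number (0.0922), with arrays centred on their medians (0.0514) and in 7 of the 8 fits that leave out an array (up to 0.13).

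Among 18 measured genes that set the stability of MYC protein, 0 rose and 3 fell, 16.7% beside 14.2% of all genes in either direction. The median was 0.05, from -0.06 in set 1 to 0.08 in set 2. At an unadjusted p under 0.05 in limma 4 were higher and 4 lower, where 28% of all genes passed. USP28, a deubiquitinase known to protect MYC from the ligase subunit FBXW7, read 8.59, 9.99, 9.96 and 10.00 under CDK9 siRNA and 9.43, 10.59, 10.68 and 10.73 in the controls. It was lower in every pair and fell to 60.6% of control (95% confidence interval 55.6 to 65.9%, log2 -0.72 ± 0.05, adjusted p = 0.000146). CDC34, a ubiquitin-conjugating enzyme that works with SCF ligases, fell by 0.32 ± 0.05 (adjusted p = 0.00547), and BTRC, an SCF ligase subunit, fell by 0.26 ± 0.05 (adjusted p = 0.00959). In array set 2 alone 2 genes of this list also rose and 3 fell, where 18.1% of all genes passed. MYC protein was not measured.

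**Figure D3:**
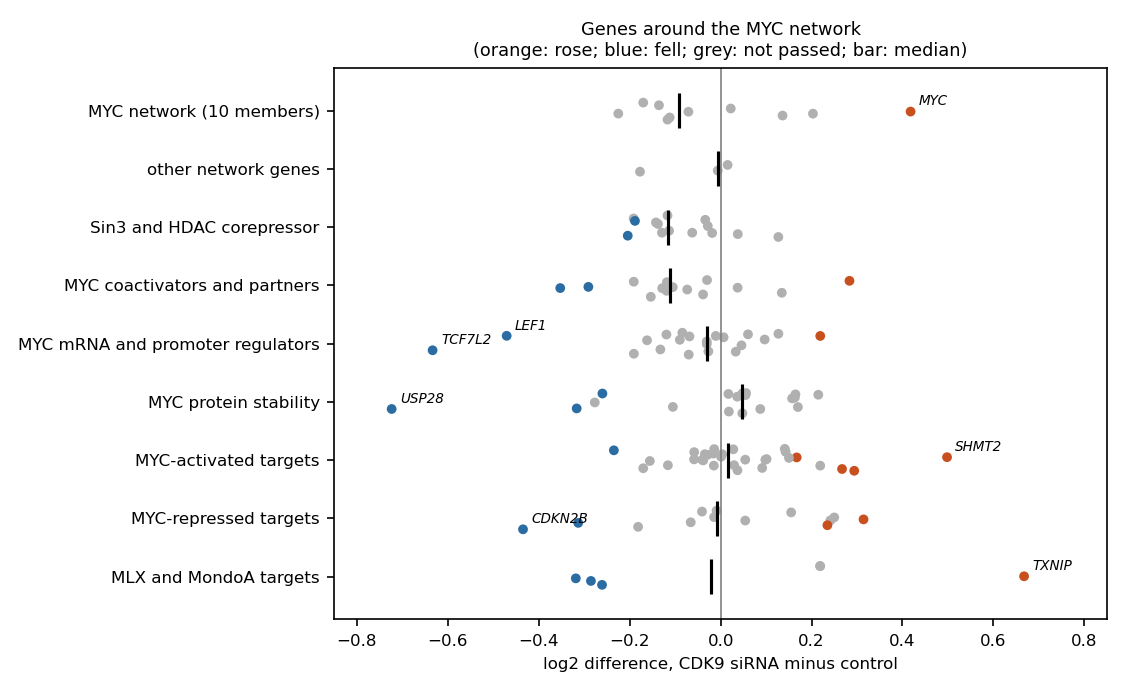
Log2 difference, CDK9 siRNA minus control (horizontal axis), of each measured gene of the network and of the lists around it (rows); orange genes rose, blue genes fell, grey genes did not pass, and black bars are list medians. MYC, TXNIP and SHMT2 stand apart on the right, and USP28, TCF7L2, LEF1 and CDKN2B on the left. The medians of the MYC-activated and MYC-repressed targets lie at 0.02 and -0.01.

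Targets that MYC is known to activate mostly did not pass: of 30 measured, 4 rose and 1 fell, 13.3% and 3.33%, beside 6.73% and 7.47% of all genes. In array set 2 alone, which is also the fit without either replicate 1 array, 3 rose and 3 fell, and 18.1% of all genes passed. With an array left out 1 to 3 rose and 0 to 3 fell, beside 714 to 1753 and 806 to 1578 of all genes. The list's median was 0.02, with 0.03 in array set 1 and 0.01 in set 2. SHMT2, the mitochondrial serine hydroxymethyltransferase, read 9.87, 10.22, 10.32 and 10.30 in replicates 1 to 4 under CDK9 siRNA and 9.23, 9.89, 9.78 and 9.82 in the controls. Every CDK9 siRNA array was above the controls of its set, and SHMT2 rose by 0.50 ± 0.06 (adjusted p = 0.00082). NOLC1, a nucleolar protein of ribosome assembly, rose by 0.29 (0.63 in the pair of set 1, and 0.18 without either replicate 1 array), and SHMT1, the cytosolic counterpart of SHMT2, rose by 0.27. HSPD1, the mitochondrial chaperone, rose by 0.17, and SRM, the spermidine synthase, fell by 0.23.

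In the fit blocked on replicate number SHMT2 was the target that kept its call, and 1 gene of the list rose and 0 fell (1 of 30 against 9.17% of all genes). The adjusted p values there were 0.0864 for NOLC1, 0.106 for SHMT1, 0.107 for HSPD1 and 0.0685 for SRM. HSPD1 lost its call without any 1 of the 8 arrays (adjusted p 0.055 to 0.129), and NOLC1, SHMT1 and SRM lost theirs without any 1 of the 6 arrays of set 2 (up to 0.0733, 0.135 and 0.0797). The SHMT1 difference was -0.06 in the pair of set 1, opposite in sign to the 0.38 of set 2.

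Of the measured MYC-activated targets 24 had a window, and 12 of these held the E-box. Over all tested genes with a window, 1557 held it and 12682 did not. SHMT2 and NOLC1 had no window, and that of SHMT1 lacked the motif. The windows of SRM and HSPD1 are shown because these targets passed in opposite directions with 1 motif each. CDK4 and APEX1 are shown because each holds 3 copies. The stretches reach from 30 bases before the outer motifs to 30 after them, on the gene's strand, at chr1:11060182-11060247 (minus strand) for SRM, chr2:197500327-197500392 (minus strand) for HSPD1, chr12:57752376-57752556 (minus strand) for CDK4 and chr14:20455091-20455238 (plus strand) for APEX1, with the motif in capitals.
SRM: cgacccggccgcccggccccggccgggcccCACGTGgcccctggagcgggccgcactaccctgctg
HSPD1: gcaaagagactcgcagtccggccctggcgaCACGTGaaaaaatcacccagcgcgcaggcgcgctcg
CDK4: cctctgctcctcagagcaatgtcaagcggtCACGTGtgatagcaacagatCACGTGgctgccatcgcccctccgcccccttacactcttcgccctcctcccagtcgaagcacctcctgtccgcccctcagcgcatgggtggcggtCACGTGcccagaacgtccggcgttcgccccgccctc
APEX1: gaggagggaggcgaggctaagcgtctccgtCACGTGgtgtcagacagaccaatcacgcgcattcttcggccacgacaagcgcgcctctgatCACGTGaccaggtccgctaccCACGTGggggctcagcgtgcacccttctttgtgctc

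With 3 motifs, CDK4, a cell cycle kinase, read 10.53, 11.18, 11.27 and 11.22 under CDK9 siRNA and 10.59, 11.27, 11.22 and 11.23 in the controls, and the groups overlapped (-0.03 ± 0.05, 95% confidence interval -0.14 to 0.08, adjusted p = 0.752). APEX1, a DNA repair endonuclease, also with 3, read 10.25, 11.22, 11.28 and 11.23 against 10.39, 11.42, 11.40 and 11.40, lower in each set (-0.16 ± 0.05, adjusted p = 0.0513). Its adjusted p was 0.125 in the fit blocked on replicate number and 0.104 with arrays centred on their medians. It was 0.0498 with the arrays quantile normalized again, 0.0433 in array set 2 alone and 0.0234 with dim genes left out. Over all genes with a window, 6.87% of the 1557 genes with the motif rose and 8.93% fell, beside 7.22% and 7.74% of the 12682 genes without it. The median differences were -0.0083 and 0.0001. These shares are a description of the genes on the array, without a test.

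Of 13 measured targets that MYC is known to repress 2 rose and 2 fell, 30.8% in either direction beside 14.2% of all genes. With an array left out 0 to 3 rose and 1 to 3 fell, beside 714 to 1753 and 806 to 1578 of all genes. The median was -0.01, from -0.08 in set 1 to 0.04 in set 2. CDKN2B, the cell cycle inhibitor p15, read 6.29, 8.33, 8.19 and 8.48 in replicates 1 to 4 under CDK9 siRNA and 6.47, 8.87, 8.72 and 8.96 in the controls. It was lower in each set and fell by 0.43 ± 0.09 (adjusted p = 0.0121). THBS1, the matrix protein thrombospondin, fell by 0.31 (adjusted p = 0.0185); it lost its call without CDK9 siRNA replicate 3 (0.0517), control replicate 3 (0.0615) or control replicate 4 (0.0617). The growth factor receptor PDGFRB rose by 0.31 and the stress factor DDIT3 by 0.23 (adjusted p = 0.0302 and 0.0375, 0.0779 and 0.0668 in the fit blocked on replicate number). PDGFRB lost its call without any 1 of the 6 arrays of set 2 (up to 0.0945) and differed by 0.0069 in array set 1, and DDIT3 lost its call in 7 of the 8 fits that leave out an array (up to 0.097).

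Among 6 genes known as targets of MLX with MondoA or ChREBP, 1 rose and 3 fell, 66.7% beside 14.2% of all genes in either direction. With an array left out 1 rose and 1 to 3 fell, beside 714 to 1753 and 806 to 1578 of all genes. In the fit blocked on replicate number 1 rose and 1 fell, where 9.17% of all genes passed. The median was -0.02, with 0.16 in set 1 and -0.14 in set 2. TXNIP, a brake on glucose uptake and the best known of these targets, read 7.33, 9.61, 9.18 and 9.31 in replicates 1 to 4 under CDK9 siRNA and 6.98, 8.51, 8.55 and 8.72 in the controls. All CDK9 siRNA arrays were above the controls of their set, with replicate 2 the highest, and TXNIP rose to 159% of control (95% confidence interval 134 to 189%, log2 0.67 ± 0.11, adjusted p = 0.00468). The transcription factor KLF10 fell by 0.29 ± 0.05 (adjusted p = 0.00652). PFKFB2 and PFKFB3, enzymes that set the level of a glycolysis activator, fell by 0.32 and 0.26 (adjusted p = 0.0279 and 0.0317, 0.0739 and 0.072 in the fit blocked on replicate number). PFKFB3 lost its call without any 1 of the 6 arrays of set 2 (up to 0.0995) and with the arrays quantile normalized again (0.0545), and PFKFB2 lost its call in 3 of the 8 fits that leave out an array (up to 0.0738). The PFKFB2 difference was -0.65 in the pair of set 1 and -0.21 without either replicate 1 array.

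**Figure D4:**
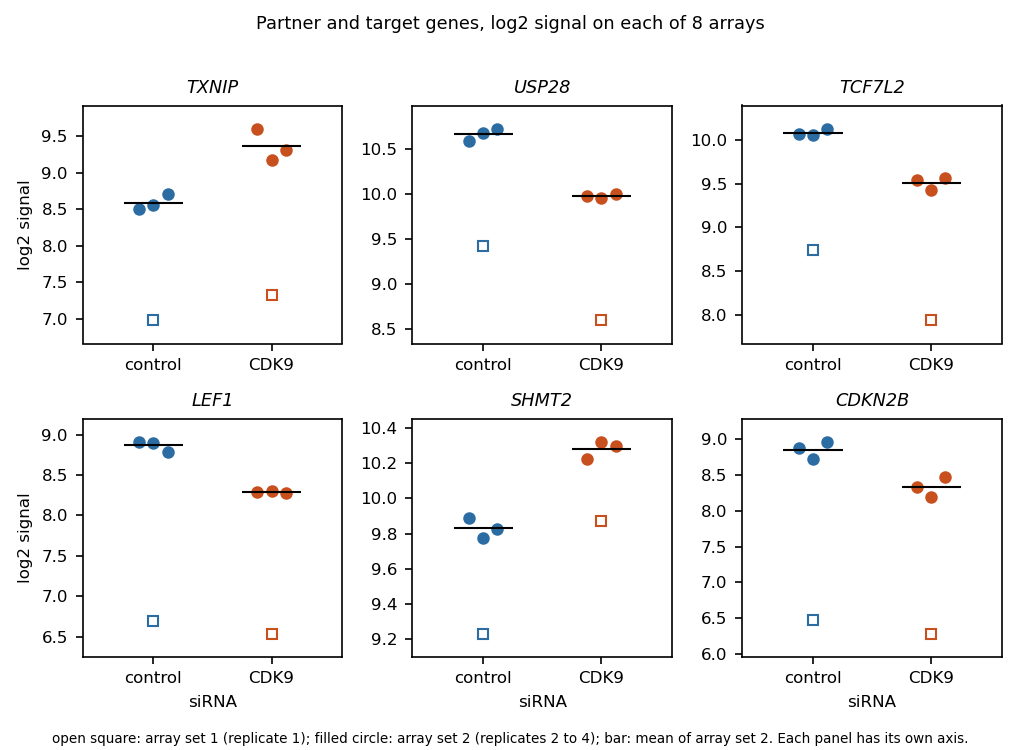
Log2 signal (vertical axis, 1 scale per panel) of 6 partner and target genes on each array, by siRNA (horizontal axis); open squares are array set 1, filled circles array set 2, and bars the means of set 2. In each panel the CDK9 siRNA points lie on the same side of the controls in both array sets, above for TXNIP and SHMT2 and below for USP28, TCF7L2, LEF1 and CDKN2B. These genes were picked among those that passed on the same arrays, and 25.3% of all genes separated in this way.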

How the data were processed

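The authors deposited log2 expression values of 33297 probe sets on 8 arrays. The tools behind them, per the submitters' processing notes, include Affymetrix Expression Console 1.1, RMA and limma, with build hg19; the order of steps and the arrays normalized together are not stated there. Gene symbols came from the platform annotation (19460 probe sets with 1 symbol, 1754 with several and 12083 with none). The probe set with the highest mean was kept per gene, which left 18417 genes. The difference between groups was fitted to the deposited log2 values with array set as a term (limma 3.58.1, R 4.3.3, moderated by eBayes), and two-sided p-values were adjusted by the Benjamini-Hochberg method over all genes. The fit was tested on simulated data. Array set was read from a gap in the numbers of the sample descriptions, and the same replicate 1 arrays had the lower median signals. The members, lists and alternatives were chosen with earlier results of these data known. Named genes are the 10 members, up to 4 per list and direction with the largest difference among those that passed, and, where none passed, the 2 with the smallest adjusted p; CDK4 and APEX1 were added for their promoter motifs. The lists also name a few genes without a single-symbol probe set, which were not measured. Alternatives were no block, a replicate block, array set 2 alone, centred or quantile normalized arrays, dim genes left out, the mean of all probe sets, and each array left out. Promoter windows are those of RefSeq (GRCh38.p14), matched by symbol.

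Deviations from group means correlated within same-numbered pairs at 0.822, 0.537, 0.494 and 0.607 across genes. These lie above the limit of 0.1 used to treat the numbers as pairs, but they include the gap between array sets. Within array set 2 the same-numbered pairs gave 0.108, -0.0105 and 0.17, and the other pairs -0.175 to 0.0762. The main fit has array set as its term, and the fit blocked on replicate number is an alternative. In these 14.2% and 9.17% of all genes passed. The design text calls the replicates biological, and 0 of 28 pairs of arrays had mostly identical values. The number of arrays limits the precision.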

Additional observations from a re-analysis of the deposited data

Results flagged for a closer look

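With arrays centred on their medians, an array stood apart from the other 3 of its group in 4 of 20 groups of member values, by the gap to its nearest neighbour as a share of the group's range, against the 95% limit of Dixon's test; chance gives about 1 in 20. Each time it was replicate 1, the array of set 1. It was the highest for MYC in the controls (share 0.918) and for MAX under CDK9 siRNA (0.909), and the lowest for MXD4 in the controls (0.873) and for MNT under CDK9 siRNA (0.889). On the deposited scale, where its set had the lower signal, replicate 1 stood apart in 20 of 20 groups.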

How the results depend on the processing

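The log2 difference of MYC lay between 0.38 and 0.48 in the 8 fits that leave out an array (adjusted p 0.00181 to 0.0142), and it passed in every alternative run except that without a block (0.42, adjusted p = 1), where 0 members were called higher and 0 of 18417 genes passed (51 at an unadjusted p under 0.05, 0 of them members). With the replicate block MYC kept 0.42 with adjusted p = 0.0129, and no member's call changed. With dim genes left out 2 members were called higher and 1 lower, and in array set 2 alone 1 was called lower, MXD4. In the fits that leave out an array the count called lower was 0 to 1 and that called higher 1. Leaving out either array of set 1 gives the fit of set 2 alone. The signs of MYCN and MXD3 turned in set 2 alone (-0.03 and 0.02), without passing in either fit. Over all genes 1239 rose and 1376 fell, against 813 and 875 with the replicate block and 714 to 1753 and 806 to 1578 with an array left out. The dim members MYCN and MYCL limit what their signals can show.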
